A study of Homo sapiens with 14 samples.

Results

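The genes described here are 34 genes of the cellular response to a shortage of amino acids and to unfolded protein. They were measured in WI-38, known as fibroblasts of human lung with a normal diploid genome. Whether the cells of every array kept that genome was not tested. The genes were chosen by name, as the rows of the deposited table whose annotated symbol is one of the 34. Each gene is represented by its row with the highest mean over the 14 arrays. All 34 were found among the 18377 genes that have a row, and 22 of them form the list of ATF4 and amino acid genes, the other 12 the list of endoplasmic reticulum (ER) chaperone genes. MTHFD2 and PSPH each have a further row. The study followed cells through a long culture on gene-level Affymetrix expression arrays with 1 array per sample. The 7 labelled groups of 2 arrays are primary WI-38 cells at passage 19, 5 groups immortalized with hTERT (the catalytic subunit of telomerase) that carry the letter A, at passages 39, 50, 58, 67 and 95, and 1 group of hTERT cells that carries the letter B, at passage 96. They are called primary, then A39 to A95, and B96. All groups were grown in MEM with serum, pyruvate, glutamine and antibiotics and passaged weekly. The sources used here do not give the meaning of the letters or the number of clones or transductions behind the hTERT cells.

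Cells that lack amino acids or accumulate unfolded protein in the ER slow protein synthesis by phosphorylating the initiation factor eIF2alpha, and under these conditions the mRNA of the transcription factor ATF4 is translated more. ATF4 raises transcription of genes that make and import amino acids and of genes that act back on the response. In the ER itself, the sensors IRE1 and ATF6 raise transcription of chaperones and of the machinery that clears misfolded protein, a branch that fibroblasts, as secretors of collagen, use heavily. All values below are log2 intensities as deposited, so a difference of 1 is a doubling of signal. Such values compare 1 gene across arrays, not different genes with each other. In RNA from whole cultures, fewer cells expressing a gene and less of its RNA per cell cannot be told apart.

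The labels and the arrays did not match in full. TERT read 7.07 and 11.70 for primary, 11.62 and 12.18 for A39, 11.98 and 10.67 for A50, 10.77 and 11.29 for A58, 11.04 and 11.16 for A67, 11.18 and 12.13 for A95, 12.05 and 11.93 for B96. Primary replicate 2 thus lay within the 10.67 to 12.18 of the 12 arrays labelled hTERT, so 1 primary label goes against the gene that checks it. Leaving out the 34 genes, 0 of the 14 arrays had the array of its own label as its nearest, and 5 pairs of arrays were each other's closest partner, each of them replicate 2 of a label with replicate 1 of the next label. In these 5 pairs the median gap over the 22 ATF4 and amino acid genes was 0.040 to 0.11 log2, against 0.24 to 0.84 in the 7 pairs that share a label. Among these 22 genes, a gap of at least 0.5 log2 was seen 0 times over the 5 mutual pairs and 69 times over the 7 labelled pairs. Such a gap was reached by 1 of the 12 ER chaperone genes in A95 replicate 2 with B96 replicate 1, and by at most 2 in a labelled pair. For the 12 ER chaperone genes the median gaps were 0.020 to 0.085 in mutual partners and 0.10 to 0.24 in labelled pairs. Over all rows they were 0.10 to 0.16 and 0.19 to 0.33. Labels displaced by 1 array would give such pairs, but also A67 replicate 2 with A95 replicate 1, which were not mutual closest partners. In these 2 arrays the members with the largest ranges read 11.31 and 11.35 (SLC7A1), 5.90 and 6.19 (DDIT4) and 7.70 and 7.62 (CHAC1). Whether the labels were displaced was not tested. No array was regrouped from its values: the labelled groups are kept in every comparison below, so their spread includes these gaps, and a displaced label would change which arrays make up each group and passage. Of the fibroblast markers, 9 of 10 read above the array median in all 14 arrays, S100A4 being the exception. The same held for 2 of 8 epithelial markers, 0 of 6 endothelial, 1 of 7 blood cell (CD68), 2 of 6 muscle and 2 of 5 neural markers, and no marker was listed at 0. These rows come from different probes, so such counts do not measure the share of a cell type.

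Ranges between arrays were mostly wider among the ATF4 and amino acid genes than among the ER chaperone genes. The median range over the 14 arrays was 1.27 log2 for the 22 ATF4 and amino acid genes, 0.58 for the 12 ER chaperone genes and 0.79 for all 18377 genes. A range of at least 1 log2 was reached by 15 of 22, by 2 of 12, and by 30.9% of all genes. Bright rows had smaller ranges, with a median of 0.50 in rows with a mean of at least 12 and 0.85 in all rows. Members this bright were HSPA5, HSP90B1, CALR and MANF of the ER list and SLC7A11 of the other. The members were chosen with earlier results of these data known, so these figures describe the lists and are not a test of them. As a list, the ATF4 and amino acid genes stood 0.58 and 0.54 log2 above their own means in primary replicate 2 and A39 replicate 1, where 21 of 22 lay above their 14-array median in each. They stood at 0.34 in both A39 replicate 2 and A50 replicate 1, with 18 of 22 above. The lowest arrays were A58 replicate 2 and A67 replicate 1 at -0.42 each, with 3 and 4 of 22 above, and primary replicate 1 at -0.39 with 2 of 22 above. Arrays of 1 label therefore lay on opposite sides, with -0.39 and 0.58 in primary and 0.34 and -0.078 in A50.

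**Figure D1:**
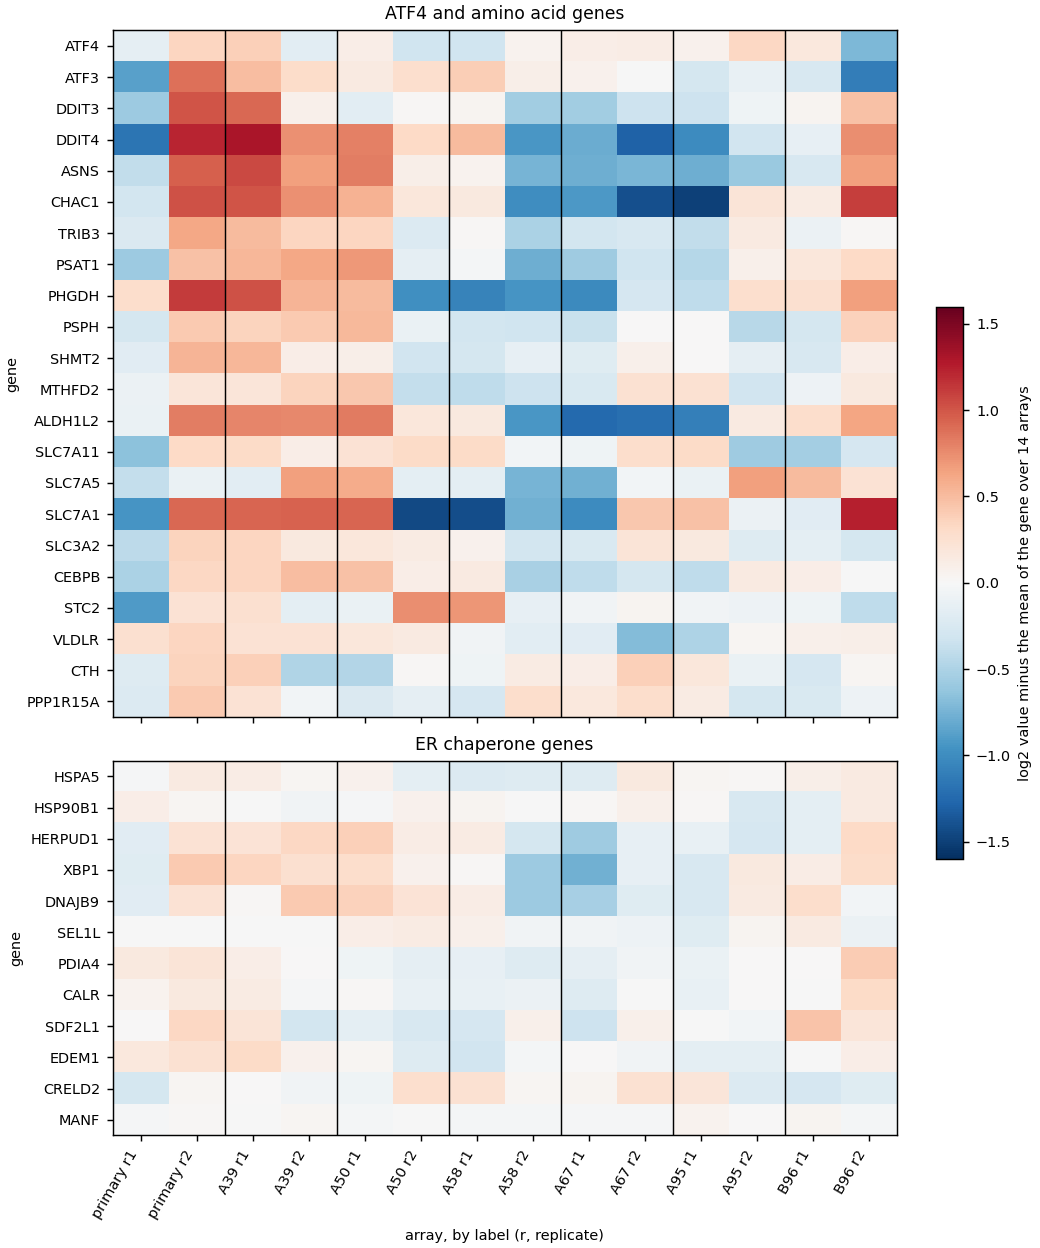
Each cell is the log2 value of a gene in an array minus the mean of that gene over the 14 arrays (red above, blue below), for the 22 ATF4 and amino acid genes (top) and the 12 ER chaperone genes (bottom). Vertical lines separate the labelled groups. DDIT4, CHAC1, ALDH1L2, PHGDH and SLC7A1 span more than 2 log2, while MANF spans 0.080.

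The ER chaperone list followed a narrower course. It deviated by at most 0.17 above (primary replicate 2) and 0.23 below (A67 replicate 1), a span of 0.40 log2 against 1.00 for the ATF4 and amino acid list and 0.089 for the mean of all genes. In A58 replicate 2 and A67 replicate 1, where the ATF4 and amino acid genes were lowest, the ER list was also at its lowest, at -0.16 and -0.23, with 2 of 12 genes above their median in each. In primary replicate 1 the lists parted, with -0.39 for the ATF4 and amino acid genes and -0.034 for the ER chaperone genes.

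**Figure D2:**
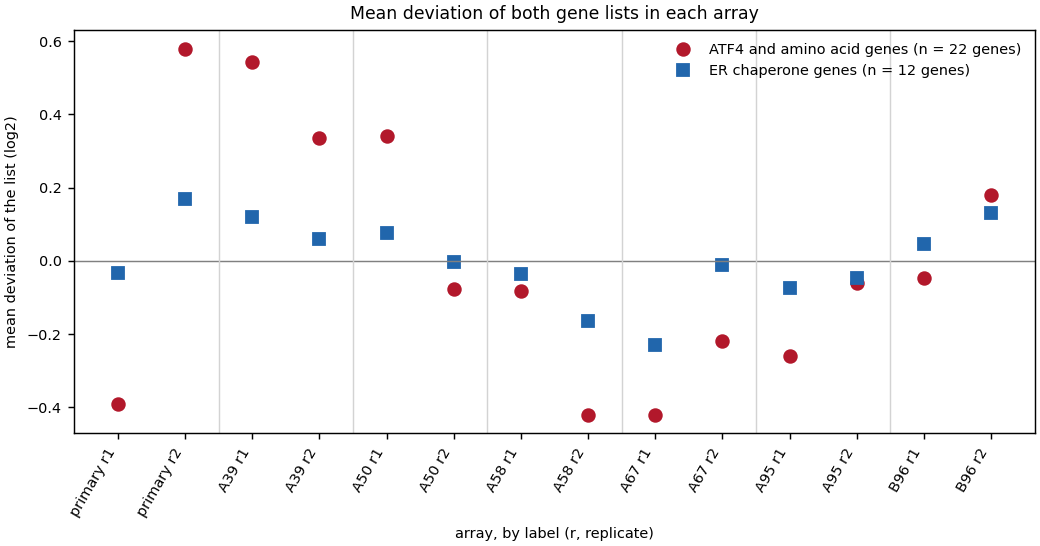
Points give the mean deviation of each list in each array, in log2 units from the 14-array mean of every gene. The ATF4 and amino acid list runs from -0.42 in A58 replicate 2 to 0.58 in primary replicate 2, and the ER chaperone list from -0.23 to 0.17.

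Transcription factors of the response did not share 1 pattern. ATF4, the factor after which its list is named here, had log2 values of 9.91 and 10.40 for primary, 10.44 and 9.89 for A39, 10.16 and 9.73 for A50, 9.73 and 10.11 for A58, 10.16 and 10.17 for A67, 10.12 and 10.39 for A95, 10.22 and 9.33 for B96. Its range was 1.11, with the lowest value in B96 replicate 2, an array in which 15 of 22 genes of its list lay above their median. ATF3, a stress-induced relative that can repress its targets, read 6.85 and 8.60 for primary, 8.21 and 8.01 for A39, 7.87 and 7.99 for A50, 8.12 and 7.82 for A58, 7.79 and 7.71 for A67, 7.44 and 7.60 for A95, 7.47 and 6.61 for B96. ATF3 was lowest in B96 replicate 2 and primary replicate 1 and highest in primary replicate 2, and between A39 and A95 its values lay within 7.44 and 8.21. DDIT3, which encodes the proapoptotic factor CHOP, read 7.78 and 9.37 for primary, 9.29 and 8.45 for A39, 8.20 and 8.38 for A50, 8.41 and 7.81 for A58, 7.81 and 8.04 for A67, 8.04 and 8.30 for A95, 8.41 and 8.83 for B96. Its 2 highest values, 9.37 and 9.29, were in primary replicate 2 and A39 replicate 1. CEBPB, a partner of ATF4, ran from 8.65 in A58 replicate 2 to 9.67 in A39 replicate 2.

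Among genes that act back on the response or on growth, DDIT4 and CHAC1 had ranges of 2.61 and 2.59 log2. DDIT4, which encodes the mTORC1 inhibitor REDD1, read 6.03 and 8.42 for primary, 8.51 and 7.93 for A39, 8.01 and 7.52 for A50, 7.71 and 6.27 for A58, 6.40 and 5.90 for A67, 6.19 and 6.89 for A95, 7.07 and 7.94 for B96. CHAC1, an enzyme that breaks down glutathione, read 8.82 and 10.13 for primary, 10.11 and 9.84 for A39, 9.66 and 9.29 for A50, 9.27 and 8.12 for A58, 8.19 and 7.70 for A67, 7.62 and 9.32 for A95, 9.24 and 10.21 for B96. Both were high in primary replicate 2 and in A39, low from A58 replicate 2 to A95 replicate 1, and higher again in A95 replicate 2 and both B96 arrays. Primary replicate 1 was low for DDIT4 but nearer the middle for CHAC1. TRIB3, a pseudokinase that holds ATF4 and CHOP in check, ran from 7.29 in A58 replicate 2 to 8.41 in primary replicate 2. PPP1R15A, the regulatory subunit (GADD34) that brings a phosphatase back to eIF2alpha, ran from 9.21 in A95 replicate 2 to 9.91 in primary replicate 2, the smallest range of the 22.

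Enzymes of amino acid synthesis came next. ASNS, the asparagine synthetase, read 9.55 and 10.90 for primary, 11.01 and 10.60 for A39, 10.77 and 10.04 for A50, 10.00 and 9.20 for A58, 9.17 and 9.22 for A67, 9.17 and 9.35 for A95, 9.69 and 10.60 for B96. It was 10.04 or above in primary replicate 2 and the A39 and A50 arrays, and 9.17 to 9.35 from A58 replicate 2 to A95 replicate 2. PHGDH, which opens the pathway of serine synthesis, read 10.42 and 11.26 for primary, 11.16 and 10.68 for A39, 10.65 and 9.16 for A50, 9.07 and 9.20 for A58, 9.12 and 9.87 for A67, 9.73 and 10.41 for A95, 10.40 and 10.80 for B96. Its lowest values, 9.07 to 9.20, lay in the 4 arrays from A50 replicate 2 to A67 replicate 1, and the arrays of A67, A95 and B96 beyond these lay between 9.73 and 10.80. The 2 arrays labelled A50 differed by 1.49 log2. PSAT1, the aminotransferase that follows PHGDH, read 10.14 and 11.18 for primary, 11.25 and 11.33 for A39, 11.41 and 10.57 for A50, 10.68 and 9.93 for A58, 10.15 and 10.40 for A67, 10.26 and 10.80 for A95, 10.90 and 11.04 for B96. It was lowest in A58 replicate 2 and highest in A50 replicate 1. PSPH, the phosphatase that completes the pathway, ran from 8.81 in A95 replicate 2 to 9.78 in A50 replicate 1, and its other row from 8.35 to 9.71. CTH, which makes cysteine from cystathionine, ran from 6.47 in A39 replicate 2 to 7.34 in A39 replicate 1 and had its lowest values, 6.47 and 6.49, in A39 replicate 2 and A50 replicate 1, arrays in which 18 of 22 members were above their median.

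Mitochondrial folate enzymes take the serine further. ALDH1L2, which oxidizes formyl-tetrahydrofolate to carbon dioxide, read 9.50 and 10.42 for primary, 10.38 and 10.37 for A39, 10.43 and 9.79 for A50, 9.76 and 8.67 for A58, 8.36 and 8.40 for A67, 8.51 and 9.75 for A95, 9.89 and 10.23 for B96. Its values were 9.76 or above from primary replicate 2 to A58 replicate 1, 8.36 to 8.67 in the 4 arrays from A58 replicate 2 to A95 replicate 1, and 9.75 or above after that. MTHFD2 ran from 10.43 in A58 replicate 1 to 11.26 in A50 replicate 1, and its other row from 9.45 to 10.39. SHMT2, which splits serine into glycine and a folate-bound carbon, ran from 10.50 in A50 replicate 2 to 11.36 in primary replicate 2.

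Amino acid transporters differed among themselves. SLC7A1, the importer of arginine and lysine, had the largest range of all 34 genes, 2.69 log2, and read 9.94 and 11.80 for primary, 11.82 and 11.83 for A39, 11.81 and 9.44 for A50, 9.47 and 10.12 for A58, 9.88 and 11.31 for A67, 11.35 and 10.79 for A95, 10.70 and 12.13 for B96. It was within 11.80 to 11.83 in 4 arrays from primary replicate 2 to A50 replicate 1, at 9.44 and 9.47 in the next arrays, and at 11.31 and 11.35 in A67 replicate 2 and A95 replicate 1. The gap within the label was 2.37 log2 in A50 and 0.010 log2 in A39. SLC7A5, the leucine importer LAT1, ran from 9.92 in A67 replicate 1 to 11.35 in A39 replicate 2. SLC7A11, which exchanges glutamate for cystine, ran from 11.45 in primary replicate 1 to 12.43 in primary replicate 2, with 11.54 in A95 replicate 2 and 11.56 in B96 replicate 1. SLC3A2, the heavy chain that pairs with SLC7A5 and SLC7A11, ran from 11.35 in primary replicate 1 to 12.12 in primary replicate 2.

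The remaining members encode a secreted protein and a receptor. STC2, a secreted glycoprotein, read 9.86 and 11.00 for primary, 11.03 and 10.62 for A39, 10.67 and 11.51 for A50, 11.48 and 10.64 for A58, 10.72 and 10.81 for A67, 10.71 and 10.69 for A95, 10.70 and 10.36 for B96. It was highest in A50 replicate 2 and A58 replicate 1, arrays in which PHGDH and SLC7A1 were at or near their lowest. VLDLR, a lipoprotein receptor, ran from 6.08 in A67 replicate 2 to 7.12 in primary replicate 2.

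**Figure D3:**
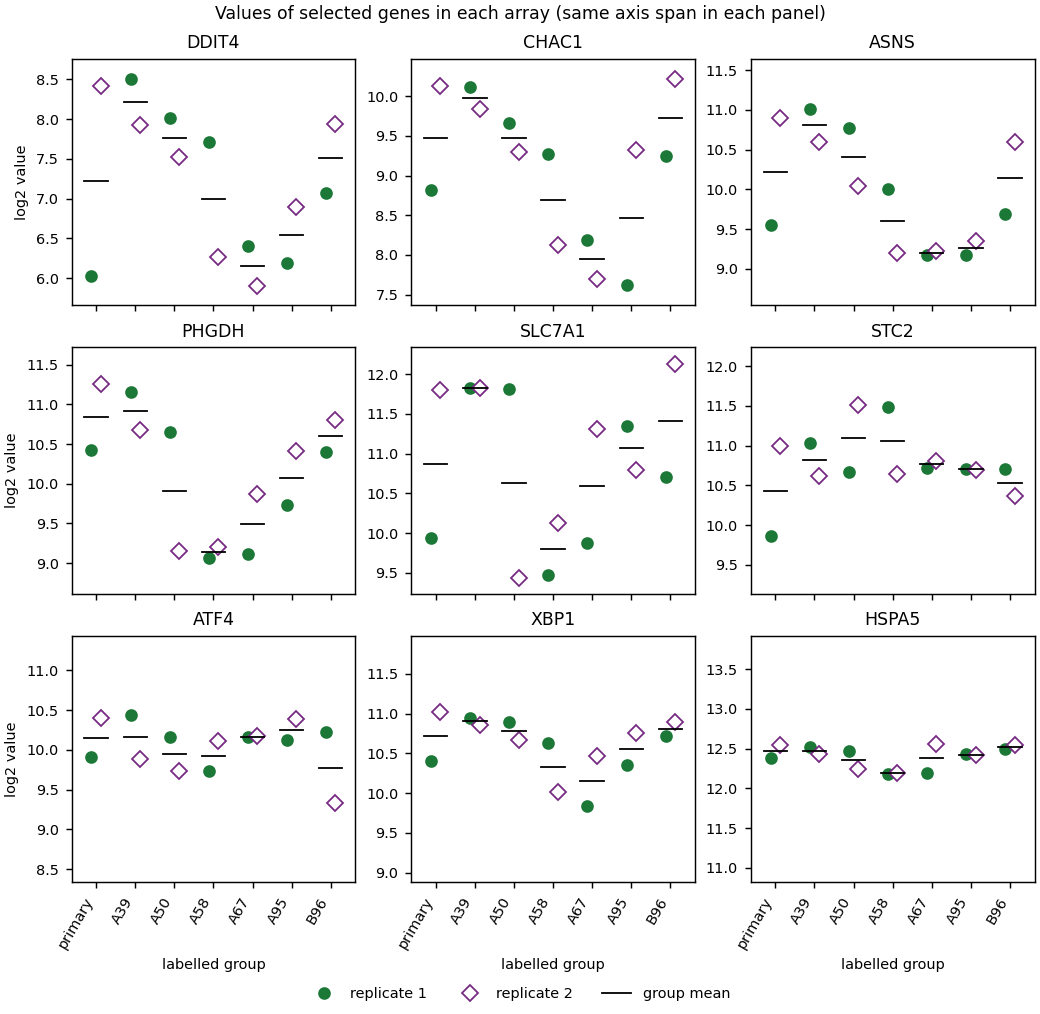
Points are the log2 values of 9 genes in the 2 arrays of each labelled group (filled circle, replicate 1; open diamond, replicate 2), and bars are group means. All panels span the same number of log2 units. The arrays of 1 label can differ by over 2 log2, as for SLC7A1 in A50, while HSPA5 stays between 12.18 and 12.56.

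Short sequences known to bind ATF4 (the C/EBP-ATF response element, CARE) were looked for in the 250 bases before each annotated start. The genes were chosen by name as members of these pathways, so matches to elements of the same pathways are not independent of that choice. The element searched was TGATGNAA on both strands. It was present in 3.14% of 35116 RefSeq promoters (GRCh38.p14), belonging to 1061 of 27305 genes. Of the ATF4 and amino acid genes, 18 have a promoter in that table, with 27 starts. Of these 18 genes 3 matched, namely ASNS and ATF3, each at 1 of its 2 starts, and CHAC1. The match began 68 bases before the start in ASNS, 191 in ATF3 and 209 in CHAC1. They are printed 5′ to 3′ on the strand of the gene, with the element in capitals and 15 bases on each side, because ASNS and CHAC1 are among the genes with the widest ranges.
ASNS, chr7:97872454-97872491, minus strand: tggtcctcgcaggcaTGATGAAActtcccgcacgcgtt
CHAC1, chr15:40953247-40953284, plus strand: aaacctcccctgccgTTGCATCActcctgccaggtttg
ATF3, chr1:212565201-212565238, plus strand: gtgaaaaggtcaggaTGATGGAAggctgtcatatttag

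In CHAC1 the element lies on the opposite strand. A match of 8 letters describes the sequence and not a site in use, and elements in other windows, such as introns, were not searched.

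Some of the ER chaperone genes share a longer promoter element. The ER stress response element (ERSE) was searched on both strands as CCAAT and CCACG with 9 bases of any kind between them. ERSE was present in 26 of 35116 promoters, or 0.074%, belonging to 25 of 27305 genes. Promoters of HSPA5, HSP90B1, XBP1 (at 1 of its 2 starts), CALR and CRELD2 held it, 5 of the 12 genes, and HSP90B1 held 2 copies. The related element ERSE-II, searched as ATTGG and CCACG with 1 base of any kind between them, was present in 0.0513% of promoters, among them those of HERPUD1 and SDF2L1. None of the 18 ATF4 and amino acid genes with a promoter held either. HERPUD1 also held the CARE sequence, 176 bases before its start and apart from its ERSE-II at 117 bases. The sequences are given with the elements in capitals, since they set these 7 genes apart from most promoters.
HSPA5, chr9:125241376-125241424, minus strand: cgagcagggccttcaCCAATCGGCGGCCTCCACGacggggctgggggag
HSP90B1, chr12:103930201-103930354, plus strand: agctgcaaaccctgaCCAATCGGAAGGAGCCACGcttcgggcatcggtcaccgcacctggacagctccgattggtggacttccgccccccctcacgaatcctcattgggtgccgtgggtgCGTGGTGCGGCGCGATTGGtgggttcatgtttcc
XBP1, chr22:28800588-28800636, minus strand: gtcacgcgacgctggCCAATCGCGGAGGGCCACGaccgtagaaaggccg
CALR, chr19:12938369-12938417, plus strand: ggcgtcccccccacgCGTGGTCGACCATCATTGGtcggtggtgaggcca
CRELD2, chr22:49918539-49918587, plus strand: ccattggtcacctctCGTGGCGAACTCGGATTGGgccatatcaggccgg
SDF2L1, chr22:21642099-21642139, plus strand: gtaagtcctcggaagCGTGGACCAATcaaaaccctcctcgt
HERPUD1, chr16:56931951-56932050, plus strand: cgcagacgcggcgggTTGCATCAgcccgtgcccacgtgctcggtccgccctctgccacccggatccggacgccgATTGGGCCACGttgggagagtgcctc

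In HSP90B1 the element nearest to the start is on the opposite strand, as are those of CALR, CRELD2 and SDF2L1. The capitals of HERPUD1 mark the CARE sequence, on the opposite strand, and then ERSE-II.

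Genes that carry these elements differed in how far they varied. HSPA5, the chaperone BiP, read 12.38 and 12.55 for primary, 12.52 and 12.43 for A39, 12.47 and 12.24 for A50, 12.18 and 12.20 for A58, 12.20 and 12.56 for A67, 12.43 and 12.42 for A95, 12.50 and 12.55 for B96, a range of 0.38. XBP1, the transcription factor whose message IRE1 splices, had the largest range of the ER list at 1.18 and read 10.41 and 11.02 for primary, 10.95 and 10.86 for A39, 10.89 and 10.67 for A50, 10.63 and 10.02 for A58, 9.84 and 10.47 for A67, 10.35 and 10.76 for A95, 10.72 and 10.90 for B96. It was lowest in A67 replicate 1 and A58 replicate 2, and its gene-level row does not separate the spliced form. HERPUD1, a membrane protein of ER-associated degradation, read 10.38 and 10.80 for primary, 10.78 and 10.89 for A39, 10.94 and 10.68 for A50, 10.70 and 10.28 for A58, 9.99 and 10.43 for A67, 10.45 and 10.29 for A95, 10.41 and 10.88 for B96, with its lowest value in A67 replicate 1 as well. SDF2L1, a component of the chaperone complex around BiP, read 8.81 and 9.13 for primary, 9.01 and 8.51 for A39, 8.65 and 8.55 for A50, 8.53 and 8.89 for A58, 8.47 and 8.89 for A67, 8.80 and 8.76 for A95, 9.26 and 9.00 for B96. The arrays labelled B96 held its highest value, and A67 replicate 1 its lowest.

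DNAJB9, a co-chaperone of BiP that restrains IRE1, had no match to the elements in this window and read 8.47 and 8.89 for primary, 8.67 and 9.08 for A39, 9.02 and 8.87 for A50, 8.77 and 8.07 for A58, 8.13 and 8.46 for A67, 8.40 and 8.80 for A95, 8.94 and 8.61 for B96. It was lowest in A58 replicate 2 and A67 replicate 1, as were XBP1 and HERPUD1. PDIA4, a disulphide isomerase, read 11.80 and 11.85 for primary, 11.76 and 11.65 for A39, 11.58 and 11.51 for A50, 11.52 and 11.44 for A58, 11.50 and 11.59 for A67, 11.54 and 11.65 for A95, 11.65 and 12.05 for B96. PDIA4 and CALR, the lectin chaperone calreticulin, had their highest values in B96 replicate 2, at 12.05 and 12.60. HSP90B1, the ER form of HSP90, ran from 12.63 in A95 replicate 2 to 13.04 in B96 replicate 2. EDEM1, which hands misfolded glycoproteins to degradation, ran from 9.30 in A58 replicate 1 to 9.91 in A39 replicate 1, CRELD2, a soluble ER protein, from 8.86 in primary replicate 1 to 9.41 in A50 replicate 2, and SEL1L, the adaptor of the ubiquitin ligase HRD1, from 10.46 in A95 replicate 1 to 10.79 in B96 replicate 1. MANF, a secreted ER stress protein, had a range of 0.080 log2. Of 489 rows with a mean of at least 12, 1 row, that of MANF itself, had so small a range, and their median range was 0.50. The table gives no saturation flag, so whether this row responds to changes in its RNA was not tested.

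The earliest hTERT passage was set against the primary cells first. For the ATF4 and amino acid genes the median difference, A39 minus primary, was 0.35 log2, and 19 of 22 were positive, while for the ER chaperone genes it was 0.0025 and 6 of 12 were positive, beside 0.035 over all 18377 genes. DDIT4 averaged 8.22 ± 0.41 in A39 and 7.22 ± 1.69 in primary (SD, n = 2 each), a difference of 0.99 ± 0.70 (SE). SLC7A1 averaged 11.83 ± 0.0071 in A39 and 10.87 ± 1.32 in primary (SD, n = 2 each), a difference of 0.95 ± 0.83 (SE). Both arrays of A39 were above both of primary in 3 of 22 genes (CEBPB, PSAT1 and SLC7A1), where 15% of all genes were, and below in 1 (VLDLR), where 13.5% were. Among the 12 ER chaperone genes 0 were above and 2 below (HSP90B1 and PDIA4). Limma called 0 of 34 members and 0% of 28869 rows at an adjusted p under 0.05, and at an unadjusted p under 0.05 it found 0 members and 1.2% of rows. The 22 genes' median depended on which primary array was used. It was -0.14 without primary replicate 1, whose TERT value was low, and 0.77 without primary replicate 2, whose TERT value lay in the hTERT range, and the ER median was -0.060 without replicate 1 and 0.025 without replicate 2. With arrays centred on their medians the ER median was -0.053, so its sign depended on the scaling.

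Between the ends of the course labelled A, most of the ATF4 and amino acid genes were lower in A95 than in A39. Their median difference was -0.56 log2 with 19 of 22 negative, against -0.10 with 9 of 12 negative for the ER chaperone genes and 0.050 over all genes, of which 43.0% were negative. DDIT4 averaged 6.54 ± 0.49 in A95 and 8.22 ± 0.41 in A39 (SD, n = 2 each), a difference of -1.68 ± 0.70 (SE, limma adjusted p = 0.532). ASNS averaged 9.26 ± 0.13 in A95 and 10.80 ± 0.29 in A39 (SD, n = 2 each), a difference of -1.54 ± 0.46 (SE, limma adjusted p = 0.528). CHAC1 averaged 8.47 ± 1.20 in A95 and 9.97 ± 0.19 in A39, and ALDH1L2 9.13 ± 0.88 in A95 and 10.38 ± 0.0071 in A39 (SD, n = 2 each). These differences were -1.50 ± 0.61 and -1.25 ± 0.46 (SE, limma adjusted p = 0.528 for both). The next in size were -0.85 ± 0.48 for PHGDH, -0.76 ± 0.39 for PSAT1 and -0.76 ± 0.83 for SLC7A1.

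Both arrays of A95 lay below both of A39 in 14 of 22 ATF4 and amino acid genes and in 3 of 12 ER chaperone genes (HERPUD1, XBP1 and EDEM1), where 17.4% of all genes did so. Above both lay 0 of 34 members, where 22.6% of all genes did. The 8 genes of the first list whose groups overlapped were ATF4, SLC7A5, SLC7A11, SLC3A2, MTHFD2, STC2, CTH and PPP1R15A. Limma called 0 of 34 members and 0% of rows. At an unadjusted p under 0.05 it found ASNS, ALDH1L2, CHAC1 and DDIT4 lower and 0 members higher, where 4.33% of rows were lower and 4.88% higher. With each of the 4 arrays left out in turn, the median of the ATF4 and amino acid genes lay between -0.58 and -0.47 and that of the ER chaperone genes between -0.17 and -0.057. The ER median also moved with the scaling, to -0.040 with quantile normalization and -0.17 with median centring.

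**Figure D4:**
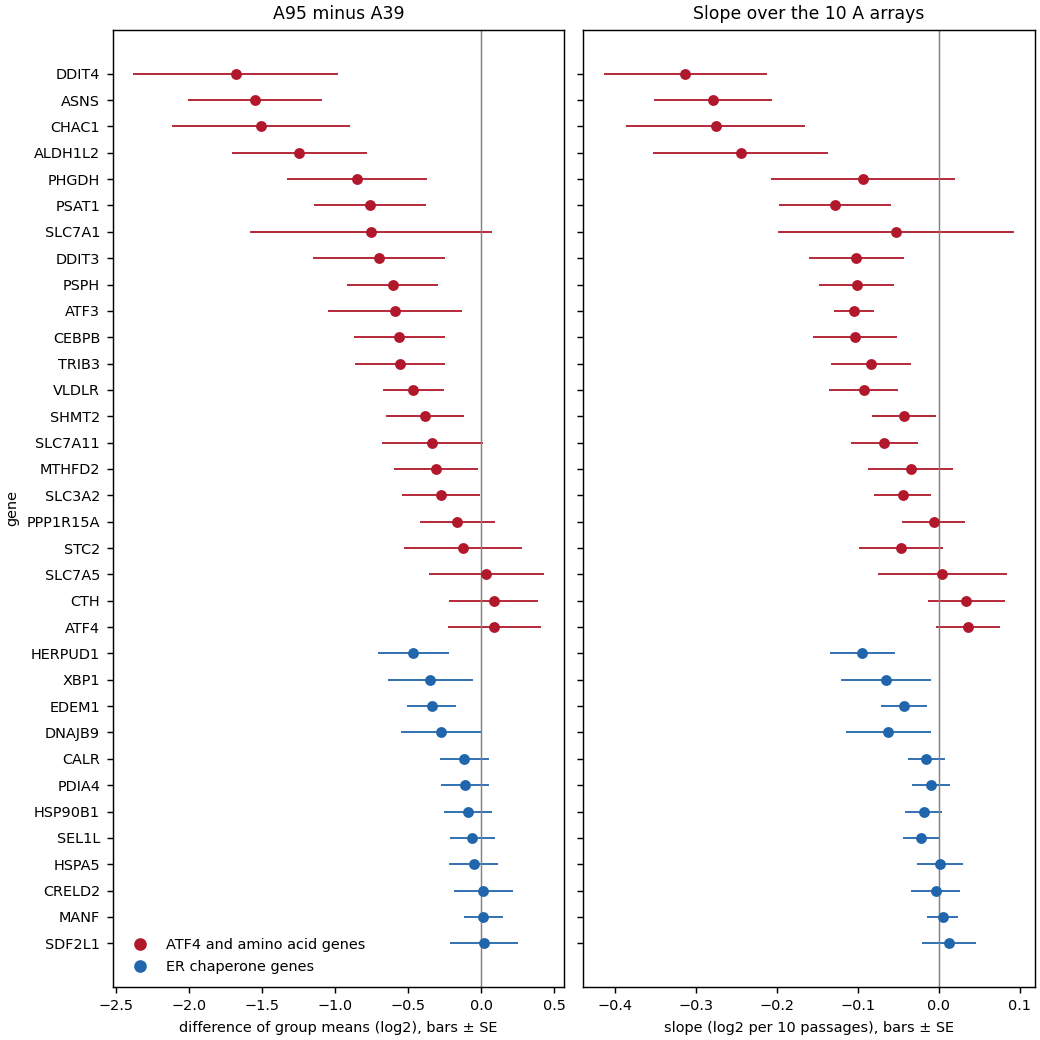
Left, difference of group means, A95 minus A39, in log2 units; right, slope over the 10 arrays labelled A, in log2 per 10 passages. Points are limma estimates with bars of 1 SE, red for the ATF4 and amino acid genes and blue for the ER chaperone genes, and genes are ordered within each list by the left panel. DDIT4, ASNS, CHAC1 and ALDH1L2 lie farthest below 0 in both panels, and none of the 34 passed the adjusted threshold in either.

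The contrast of B96 with A95 sets the cultures of different letters side by side at a near passage, and it shares the A95 arrays with the contrast above. A95 replicate 2 and B96 replicate 1 were mutual closest partners (Pearson r = 0.986 without the 34 genes). The arrays labelled A95 correlated at 0.945 and those labelled B96 at 0.944. Whether the differences below belong to the letters was not tested. The median difference was 0.14 log2 for the ATF4 and amino acid genes (14 of 22 positive), 0.19 for the ER chaperone genes (10 of 12 positive) and -0.0050 for all genes. CHAC1 averaged 9.72 ± 0.69 in B96 and 8.47 ± 1.20 in A95 (SD, n = 2 each), a difference of 1.25 ± 0.61 (SE). It read 9.32 in A95 replicate 2 and 9.24 in B96 replicate 1, beside 7.62 in A95 replicate 1 and 10.21 in B96 replicate 2. DDIT4 had a difference of 0.96 ± 0.70, ALDH1L2 of 0.93 ± 0.46 and ASNS of 0.89 ± 0.46, while ATF4 and ATF3 had differences of -0.48 ± 0.32 and -0.48 ± 0.46 (all SE). Both arrays of B96 were above both of A95 in 6 of 22 genes (ASNS, ALDH1L2, DDIT4, DDIT3, PSAT1 and VLDLR) and in 3 of 12 (HSPA5, EDEM1 and SDF2L1), where 9.64% of all genes were. Below both lay 0 members, where 9.95% of all genes did. Limma called 0 of 34 members and 0% of rows, and at an unadjusted p under 0.05 it found 0 members and 2.28% of rows, 1.38% higher and 0.904% lower. Without B96 replicate 2 the ER median was 0.065, and the 22 genes' median lay between 0.017 and 0.21 over the 4 arrays left out.

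In a further fit, log2 values of the 10 A arrays were regressed on passage number. Slopes of 19 of 22 ATF4 and amino acid genes were negative, with a median of -0.089 log2 per 10 passages, and 9 of 12 ER chaperone genes had negative slopes with a median of -0.017, beside 0.0098 over all genes. With single arrays left out the first median lay between -0.11 (without A95 replicate 2) and -0.050 (without A39 replicate 1), and the ER median between -0.029 (without A95 replicate 2) and -0.016. The ER median was -0.0067 with quantile normalization and -0.029 with median centring. DDIT4 had a slope of -0.31 ± 0.10 (SE, limma adjusted p = 0.155), ASNS of -0.28 ± 0.073 (adjusted p = 0.103), CHAC1 of -0.28 ± 0.11 (adjusted p = 0.224) and ALDH1L2 of -0.24 ± 0.11 (adjusted p = 0.255). Without A95 replicate 2 the slope was -0.48 for CHAC1 and -0.42 for ALDH1L2. ATF3 had the smallest p of the 34, with a slope of -0.10 ± 0.025 (adjusted p = 0.087). The 3 positive slopes in the first list belonged to ATF4 (0.036 ± 0.039), CTH (0.034 ± 0.047) and SLC7A5 (0.0042 ± 0.080), and those of CTH and SLC7A5 changed sign with some single arrays left out. Limma called 0 of 34 members and 0.281% of 28869 rows. At an unadjusted p under 0.05 the slope was negative in 7 of 22 (DDIT4, ASNS, CHAC1, ALDH1L2, ATF3, PSPH and VLDLR) and in 1 of 12 (HERPUD1), where 8.83% of rows were.

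The medians of both lists were steeper without the passage 95 arrays. On passages 39 to 67 alone the median slope was -0.25 for the ATF4 and amino acid genes and -0.056 for the ER chaperone genes, with -0.75 for DDIT4, -0.74 for CHAC1, -0.73 for ALDH1L2, -0.61 for ASNS and -0.56 for PHGDH. Other members were shallower there, such as SLC7A11 at -0.045 and STC2 at -0.016, or had the opposite sign, such as ATF4 at -0.0078, PPP1R15A at 0.057, HSP90B1 at 0.026 and CRELD2 at 0.061. The arrays of A95 were far apart for some of these genes, and CHAC1 read 7.62 in A95 replicate 1 and 9.32 in A95 replicate 2. Call counts of the trend depended on the settings. ATF3 passed with arrays centred on their medians (adjusted p = 0.049) and with passage as a random block (adjusted p = 0.039), ASNS and DDIT4 on ranks of passage (adjusted p = 0.025 and 0.050), and 6 members (ATF3, DDIT4, ASNS, CHAC1, ALDH1L2 and VLDLR) with array weights (adjusted p = 0.023 to 0.040). The fit takes the 10 arrays as independent, although arrays of neighbouring labels lay closer together than arrays of 1 label. With passage as a random block, the fitted correlation between arrays of 1 passage was -0.16. A negative value makes the SE of a slope smaller, so that fit was not a stricter one. An F test over the 7 groups called 0 of 34 members and 0% of rows, and at an unadjusted p under 0.05 it found 4 of 22 (ALDH1L2, PHGDH, ASNS and VLDLR) and 0 of 12, beside 4.62% of rows.

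Other genes of the same pathways, from lists chosen by function, were set beside the members. Cytosolic tRNA synthetases, which ATF4 is known to raise in part, were lower in A95 than in A39 in 16 of 19, with a median of -0.19, and 0 of 19 passed. WARS1, for tryptophan, differed by -1.14 ± 0.41 and CARS1, for cysteine, by -0.89 ± 0.32, while FARSB, for phenylalanine, differed by 0.67 ± 0.24 (all SE). Among 28 further ATF4 targets and amino acid enzymes 17 were negative, with a median of -0.23 and 0 past the test. NUPR1, a stress-induced chromatin protein, read 7.87 and 9.03 in A95 and 9.82 and 9.75 in A39, with 7.41 in A58 replicate 2 as its lowest value. KLHL24, a ubiquitin ligase adaptor, read 6.34 and 7.12 in A95 and 7.47 and 8.63 in A39, a difference of -1.32 ± 0.54 (SE). NDRG1, a gene induced by several stresses, differed by -0.94 ± 0.38 (SE). SLC1A4, a transporter of alanine and serine, had a positive difference of 1.09 ± 0.35 (SE). The 14 eIF2alpha kinases and regulators had a median of -0.028 with 9 negative, and EIF2AK4, the kinase GCN2 that senses uncharged tRNA, read 9.71 and 9.87 in A95 replicate 2 and B96 replicate 1, against 10.46 to 10.93 in the other 12 arrays.

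Further genes of the ER branch had small median differences. The 27 measured genes of ER folding and degradation beyond the members had a median of -0.040 in A95 versus A39, with 15 negative and 0 past the test, beside 0.050 over all genes. At an unadjusted limma p under 0.05, 4 of 27 were lower, where 4.33% of all rows were. In the trend 7 of 27 were lower at that level, where 8.83% of all rows were. The 7 sensors and proteases had a median of -0.040 in A95 versus A39, with 4 negative and 0 past the test. WFS1, an ER membrane protein, had the largest range of the 27 folding and degradation genes, at 1.66 log2, and differed by -0.86 ± 0.35 (SE). The 12 measured cytosolic heat shock genes, which answer to unfolded protein outside the ER, had a median of 0.090 with 5 negative and 0 past the test. Targets of NRF2, a factor that also raises SLC7A11, were negative in 8 of 11, with a median of -0.29 and 0 past the test. HMOX1, a heme oxygenase, differed by -1.39 ± 0.46 and SRXN1, a sulfiredoxin, by 0.090 ± 0.43 (SE). NQO1, a quinone reductase, read 11.30 and 11.37 in A95 replicate 2 and B96 replicate 1, the arrays in which SLC7A11 was at 11.54 and 11.56.

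Genes of the cell cycle, p53 targets and fibroblast markers also differed between these arrays. The list of 16 mitosis genes deviated by -0.99 in both A39 replicate 2 and A50 replicate 1, where the ATF4 and amino acid list stood at 0.34, and by 0.72 and 0.71 in A67 replicate 2 and A95 replicate 1, where that list stood at -0.22 and -0.26. In primary replicate 2 and A39 replicate 1, where the ATF4 and amino acid list was highest, the mitosis list was at 0.11 and 0.042. Its median difference was 0.88 in A95 versus A39 with 16 of 16 positive, against -0.80 in A39 versus primary and -0.28 in B96 versus A95 with 0 of 16 positive in each. MKI67, a marker of cycling cells, had log2 values of 10.74 and 10.28 for primary, 10.13 and 8.79 for A39, 8.84 and 9.53 for A50, 9.40 and 10.82 for A58, 10.62 and 10.91 for A67, 10.88 and 10.55 for A95, 10.52 and 10.39 for B96. The p53 targets ran from -0.46 in A95 replicate 1 to 0.44 in A50 replicate 1. Their member TNFRSF10B, a death receptor, fell along the A arrays with a slope of -0.20 ± 0.035 (SE, limma adjusted p = 0.048). In A95 versus A39 the p53 targets were lower in 12 of 13 (median -0.68) and the fibroblast markers in 10 of 10 (median -0.52). The fibroblast markers ran from -0.60 in B96 replicate 1 to 0.43 in primary replicate 2. The part of these lists in the results on the 34 genes was not tested.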

How the data were processed

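RNA of 14 samples was hybridized to Affymetrix human Gene 1.0 ST arrays after sense target labelling, per the labels' protocols. The authors deposited 1 table of log2 values, 28869 rows by 14 arrays, and the sources used here do not say how background was removed, probes combined or arrays normalized. The log base was read from the range, 0 to 14.27, and array medians lay between 7.26 and 7.48. No detection calls are included. With 2 arrays per group, the number of arrays limits the precision. The labels call the arrays biological duplicates without naming separate cultures, so p-values measure the spread between arrays.

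Rows took their gene names from the platform annotation, brought up to date by RefSeq gene ID. One symbol was found for 19310 rows (19279 by gene ID), several for 1752 and none for 7807, and rows with several named no gene. Group means and, over the 10 A arrays, a slope per 10 passages were fitted with limma 3.58.1 in R 4.3.3 (lmFit, eBayes) on all rows without a filter, with Benjamini-Hochberg adjustment over 28869 rows, a threshold of 0.05 and two-sided tests. Group fits had 7 residual and 3.43 prior degrees of freedom. The fits were also run on simulated data with independent noise in each array. That simulation does not hold the likeness between arrays of neighbouring labels, so it cannot check the fits for it. Promoters were searched in Python 3.11.15. The members and lists were chosen with earlier results of these data known, so lists are described by counts and medians only. Values in every array are given for the 10 and 5 genes of each list with the largest range and for ATF4, XBP1, DDIT3 and HSPA5, other members by their range, and at most 4 genes per further list, those past the test or with the largest range. TERT and MKI67 are given in every array.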

Additional observations from a re-analysis of the deposited data

How the results depend on the processing

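In the 3 contrasts limma called 0 of 34 members under every alternative run, and 0 rows except for 2 rows in A95 versus A39 fitted on those groups alone and, with single arrays left out, 0 to 6 rows in A39 versus primary, 0 to 4 in A95 versus A39 and 0 to 3 in B96 versus A95. With single arrays left out, an arm of 1 array is assumed to vary like the other groups. The median of the ATF4 and amino acid genes then ran from -0.14 to 0.77 in A39 versus primary, and that of the ER chaperone genes from 0.065 to 0.24 in B96 versus A95. The trend over the A arrays called 81 rows as reported, 159 with quantile normalization, 429 with median centring, 271 above the 30th percentile of row means, 174 with 1 row per gene, 132 with an intensity trend and robust prior, 2171 with array weights, 729 with a random block for passage, 489 on passage ranks, 0 on passages 39 to 67, and 0 to 571 with single arrays left out (571 without A95 replicate 1). The random block used a correlation of -0.16 between arrays of 1 passage. The cause of the differing counts was not tested. Members called in the trend numbered 0 as reported, 1 with median centring, 6 with array weights, 1 with the random block, 2 on ranks and 0 with any array left out. On passages 39 to 67 the medians were -0.25 and -0.056. The fit with the replicate number as a block called 0 rows in each contrast and 74 in the trend, with 0 members, and the numbers are not known to pair samples. Same-numbered deviations correlated at -0.17 in A39 versus primary and -0.53 in B96 versus A95, and crossing the numbers there, an alternative chosen after seeing the data, also gave 0 calls. Of the trend slopes of members, 45 of 680 values under alternatives changed sign. As no member was called in the trend as reported, no called slope could change sign.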
